A study of Mus musculus with 4 samples.

Results

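The miR-378 family was followed on microarrays of esophagus and serum from a mouse model of Barrett's esophagus. Its members were the probes named mmu-miR-378a-3p, mmu-miR-378a-5p and mmu-miR-378b, written below without the species prefix, which made up 3 of the 1265 miRNA probes on each array. They were chosen by name and not by a cut on their values, though with earlier results of these arrays known, and each was spotted at 1 place. The array also held probes for the related miR-378c and miR-378d, and these 2 are shown beside the members for comparison.

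The 4 groups were esophagus at 46 weeks of age, esophagus at 28 weeks, serum at 46 weeks and serum at 28 weeks, each with 1 array. All came from L2-IL-1β mice, which carry a transgene for human interleukin-1β under a viral promoter active in squamous epithelium, and all 4 samples carry the label Barrett's esophagus, a state in which columnar epithelium takes the place of the squamous lining. Neither mice without the transgene nor mice younger than 28 weeks were analysed here, and how many mice gave each RNA is not stated in the labels. With 1 array per group no difference below has a replicate check or a test, and fewer cells of a type cannot be told apart from less RNA per cell.

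MiR-378a is cut from an intron of Ppargc1b, the gene of the coactivator PGC-1β, which switches on genes of mitochondria and lipid metabolism. The hairpin gives a 3p and a 5p strand, which in mice have been reported to act on Crat, an enzyme that handles acetyl groups in mitochondria, and Med13, a subunit of the Mediator complex. MiR-378a-3p is best known from skeletal muscle, heart, liver and brown fat, while miR-378b, miR-378c and miR-378d are paralogues with closely similar mature sequences at other loci.

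The mature sequences are shown because the family members are so alike that a probe could take up more than one of them. They come from RefSeq on the build GRCm38.p6, whose table gave an entry for 1 of the 3 members, miR-378b, and for both of the other family probes. Each is written 5′ to 3′ in lower case, with the seed, bases 2 to 8, in capitals.

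miR-378b: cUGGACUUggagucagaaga

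miR-378c: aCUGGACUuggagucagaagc

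miR-378d: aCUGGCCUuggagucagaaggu

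MiR-378b lies on chr11:88352839-88352858 on the plus strand, within the span of Msi2, a gene of an RNA-binding protein. MiR-378c lies on chr14:46954905-46954925 on the minus strand, within the spans of Samd4 and of the long noncoding RNA gene Gm52120. MiR-378d lies on chr10:126710355-126710376 on the minus strand, outside the span of any other gene in the RefSeq table. The tables used here do not say whether these places are exonic or intronic.

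MiR-378b starts 1 base further in than miR-378c, so that 19 of the 20 bases they share are identical and the seed windows are shifted by 1 base. The single difference is A20C, counted from the 5′ end of miR-378b. Between miR-378c and miR-378d, 19 of 21 aligned bases are identical, and the differences are A6C, which lies in the seed, and C21G, counted from the 5′ end of miR-378c. Each of the 3 seeds was held by 1 of the 1679 mature miRNAs in the table. As the table lacks miR-378a-3p and miR-378a-5p, this count cannot show that a seed is unique within the family. How far the probes distinguish such similar miRNAs was not measured on these arrays, so the family's values cannot be taken as independent of each other.

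Signals are given as net signal, the median intensity of a spot minus the mean of the 1664 BLANK spots on the same array, in arbitrary units. A miRNA was called detected where its spot was above the BLANK mean plus 2 SD. By this rule 939 miRNAs were detected in 46-week esophagus and 973 in 28-week esophagus, against 853 in 46-week serum and 1000 in 28-week serum. All 3 members were detected on all 4 arrays, where they also exceeded the mean plus 2 SD of spots printed without a probe. For comparisons, each array was scaled to 1 common median over the 731 miRNAs detected on all arrays. The spot-noise SD given beside a log2 difference covers the noise of single spots, and leaves out all variation between mice, extractions and hybridisations.

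MiR-378a-3p, the strand usually taken as the active one, had net signals of 432 in esophagus at 46 weeks and 342 in esophagus at 28 weeks, against 172 in serum at 46 weeks and 111 in serum at 28 weeks. Both esophageal arrays were above both serum arrays, and serum at 28 weeks was the lowest. After scaling, the levels were 411 in 46-week and 393 in 28-week esophagus, which differed by less than the spot noise, and 179 in 46-week and 99.4 in 28-week serum.

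MiR-378a-5p, the opposite strand of the same hairpin, was dim. Its net signal was 19.8 in 46-week and 18.95 in 28-week esophagus, and 21.7 in 46-week and 10.7 in 28-week serum. In scaled units, in the same order of arrays, these were 18.8, 21.8, 22.5 and 9.63. Here serum at 46 weeks lay at the level of both esophageal arrays, and serum at 28 weeks was below the other 3. The spot of that lowest array read 57.0, against limits of 48.5 from BLANK spots and 51.1 from spots without probe.

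MiR-378b had a net signal of 313 in 46-week and 284 in 28-week esophagus, and 129.5 in 46-week and 67.2 in 28-week serum. In scaled units, in the same order of arrays, these were 298, 327, 134 and 60.3. The order of the 4 arrays was that of miR-378a-3p except that after scaling the 46-week esophagus stood slightly below the 28-week one, by more than 1 spot-noise SD.

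The other 2 family probes also stood higher in both esophageal arrays than in serum. MiR-378c had a net signal of 412 in 46-week and 300 in 28-week esophagus, and 137 in 46-week and 94.2 in 28-week serum. MiR-378d had 287 in 46-week and 248 in 28-week esophagus, and 134 in 46-week and 79.4 in 28-week serum.

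**Figure D1:**
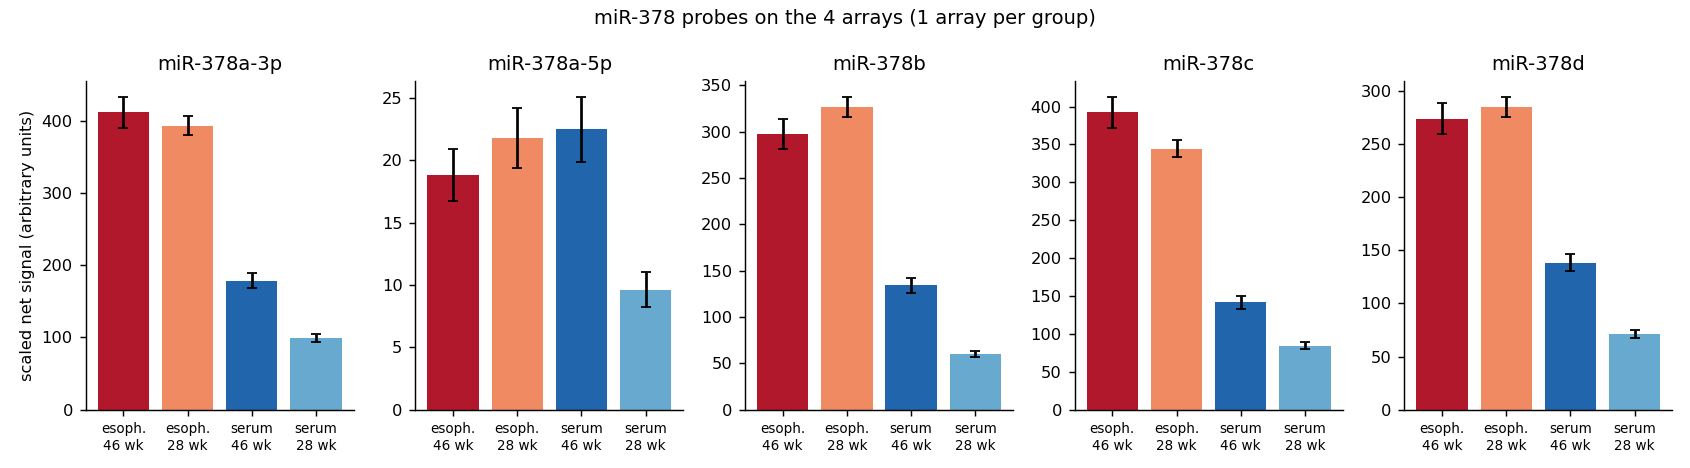
Scaled net signal (arbitrary units) of the 5 miR-378 probes on the 4 arrays, 1 bar per array, with an error bar of 1 spot-noise SD and an axis of its own for each probe. Serum at 28 weeks is the lowest bar in every panel, and the esophageal bars are the highest for all but miR-378a-5p, whose serum level at 46 weeks of 22.5 stands beside 21.8 in esophagus at 28 weeks.

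In esophagus, none of the 3 members differed by 2-fold between 46 and 28 weeks. The log2 difference of 46 minus 28 weeks was 0.06 for miR-378a-3p (spot-noise SD 0.09), -0.21 for miR-378a-5p (0.23) and -0.14 for miR-378b (0.09). The differences of miR-378a-3p and miR-378a-5p were smaller than their spot noise. Among the 843 esophageal miRNAs detected at both ages, 1.30% passed 2-fold upward and 1.66% downward, and the median was -0.03. With the higher limit from spots without probe 554 were left, of which 1 passed upward and 2 downward. MiR-378c and miR-378d stood at 0.19 and -0.06 (0.09 each), so that the 5 family probes lay on both sides of 0.

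In serum, miR-378a-5p and miR-378b rose at least 2-fold at 46 weeks relative to the median of the arrays, and miR-378a-3p was higher by less. The log2 difference of 46 minus 28 weeks was 1.22 for miR-378a-5p (spot-noise SD 0.27), 1.15 for miR-378b (0.12) and 0.84 for miR-378a-3p (0.12), or 2.34-fold, 2.23-fold and 1.80-fold. So 2 of 3 members passed 2-fold upward and 0 of 3 downward. Over the 822 serum miRNAs detected at both ages, 8.52% passed 2-fold upward and 3.41% downward, with a median of 0.08. With the higher limit from spots without probe 581 were left, of which 47 passed upward and 20 downward. MiR-378a-5p had the 37th highest difference of the 822, miR-378b the 49th and miR-378a-3p the 100th. Among the 411 serum miRNAs in the brighter part of the range, above the median level, where 9.49% passed 2-fold upward, miR-378b ranked 29th and miR-378a-3p 58th. MiR-378d, at 0.96, and miR-378c, at 0.74 (0.12 each), also stood above the median without passing 2-fold.

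The size of the serum difference depended on what the arrays were scaled to. The spike-in spots, named as spike controls in the files, had a mean net signal of 14018 in 46-week serum and 9324 in 28-week serum. The labels do not state how much spike-in each sample received. Scaled to these spots, the median of the 822 serum miRNAs was -0.72, and the members stood at 0.049 for miR-378a-3p, 0.43 for miR-378a-5p and 0.36 for miR-378b, with none past 2-fold. On this scale most serum miRNAs were lower at 46 weeks, while the 3 members stood between 0.049 and 0.43. With no scaling the differences were 0.64, 1.02 and 0.95 for miR-378a-3p, miR-378a-5p and miR-378b, and in the authors' deposited table they were 0.51, 0.89 and 0.82. The authors' deposited table lists, for 46-week and 28-week serum, 370.2 and 259.6 for miR-378a-3p, 46.7 and 25.2 for miR-378a-5p, and 278.1 and 157.4 for miR-378b. In each of the 3 members the 46-week serum value of the authors' deposited table is the higher. Relative to the median of the 731 miRNAs detected on all arrays, the 3 members stood higher by 0.78, 1.16 and 1.09, a distance that scaling an array as a whole cannot change. With the offset and quantile normalization it was 0.51, 0.29 and 0.59.

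**Figure D2:**
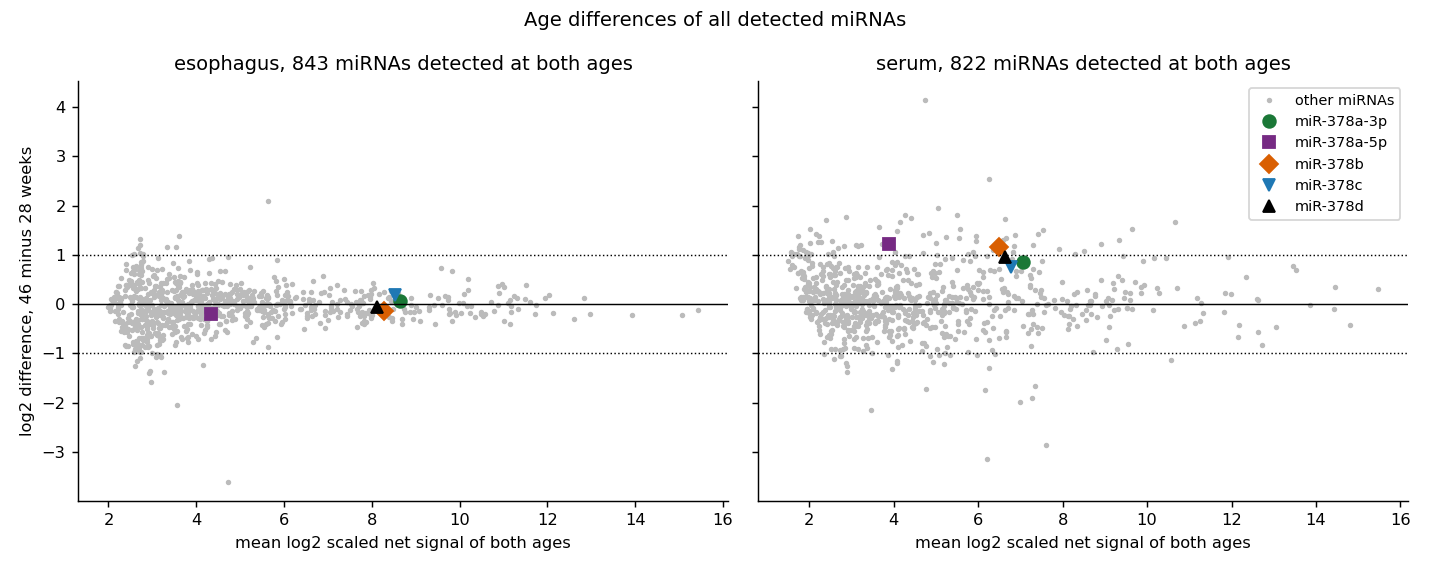
Log2 difference of 46 minus 28 weeks against the mean log2 scaled net signal for every miRNA detected at both ages (grey), with the 5 miR-378 probes marked, in 843 esophageal and 822 serum miRNAs. Dotted lines mark 2-fold. The marked probes lie between -0.21 and 0.19 in esophagus and between 0.74 and 1.22 in serum, and on the spike-in scale the serum values lie between -0.05 and 0.43.

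The age difference in serum minus that in esophagus was 1.44 for miR-378a-5p (spot-noise SD 0.35), 1.29 for miR-378b (0.15) and 0.78 for miR-378a-3p (0.15). It was 1.02 for miR-378d and 0.56 for miR-378c (0.15 each). On the spike-in scale it was -0.045 for miR-378a-3p and -0.27 for miR-378c, and with normexp it was -0.24 for miR-378c, so the sign of these 2 rests on the processing. Over all 7 ways of processing it was lowest at 0.34 for miR-378a-5p, with normexp, and at 0.46 for miR-378b, on the spike-in scale. With 1 array per group none of the differences was tested.

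Esophagus stood above serum for miR-378a-3p and miR-378b at both ages. At 46 weeks esophagus minus serum came to 1.20 on the log2 scale for miR-378a-3p (spot-noise SD 0.11), 1.15 for miR-378b (0.11) and -0.26 for miR-378a-5p (0.23). None of the 3 reached 4-fold, the size counted between tissues, which 6.19% of 776 miRNAs passed toward esophagus and 6.57% toward serum. At 28 weeks it was 1.98 for miR-378a-3p (0.09), 2.44 for miR-378b (0.10) and 1.18 for miR-378a-5p (0.26). MiR-378b, at 5.43-fold, was the 1 of 3 members past 4-fold, a size that 7.04% of 881 miRNAs passed toward esophagus and 3.75% toward serum, and miR-378a-3p, at 3.96-fold, lay just under it. The gap of miR-378a-3p was wider at 28 weeks than at 46 weeks, except on the spike-in scale, where it was 1.28 at 46 weeks and 1.24 at 28 weeks. On that scale miR-378b stood at 1.69 at 28 weeks and none passed 4-fold. MiR-378a-5p at 28 weeks stood at 0.43 on the spike-in scale, 0.27 with normexp and 0.24 with an offset of 50 and quantile normalization. One extraction kit served tissue and another served serum, and the effects of kit and sample cannot be told apart.

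The intensity around the spots differed between arrays for 4 of the 5 family probes. Around miR-378b it was 58.2 in 46-week and 169 in 28-week esophagus, and 49.9 in 46-week and 83.1 in 28-week serum. The spot itself read 369 in 46-week and 339 in 28-week esophagus, and 182 in 46-week and 113 in 28-week serum. Around miR-378d it was 57.9 in 46-week and 153 in 28-week esophagus, but 50.3 in 46-week and 50.9 in 28-week serum. Around miR-378c it was 177 in 46-week and 194 in 28-week esophagus, and 122 in 46-week and 85.4 in 28-week serum. The 28-week esophagus had the brightest surroundings for these 3 probes. Around miR-378a-3p it was 84.8 in 46-week and 66.99 in 28-week esophagus, and 112 in 46-week and 86.8 in 28-week serum, where the spots read 225 and 157. Around miR-378a-5p it stayed between 42.5 and 49.7 on all arrays.

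Subtraction of this local background by the normexp method, with an offset of 50 and quantile normalization, moved the esophageal difference of miR-378b to 0.40 and that of miR-378d to 0.52. MiR-378c then stood at 0.40 in esophagus and miR-378a-3p at -0.087. In serum miR-378b then stood at 1.195, miR-378d at 0.57, miR-378a-3p at 0.47 and miR-378c at 0.17. Their net signals gave 1.15, 0.96, 0.84 and 0.74 in that order. The offset draws dim miRNAs toward 0, and miR-378a-5p stood at 0.29 in serum both with normexp and with the offset and quantile normalization on net signals.

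**Figure D3:**
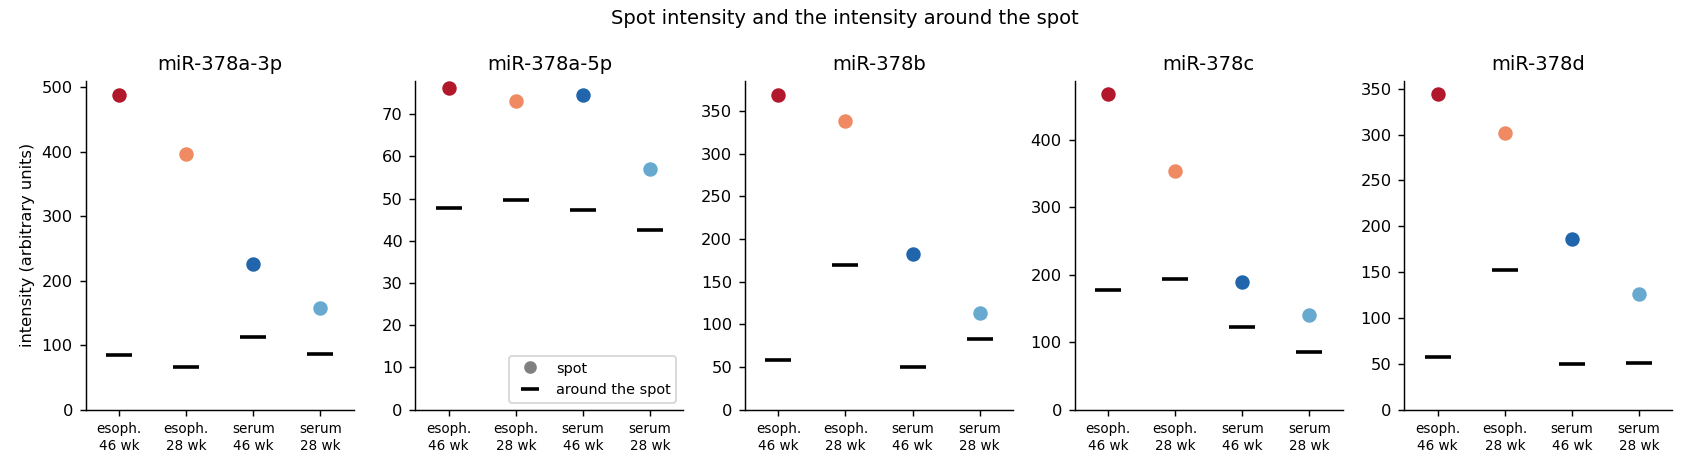
Spot intensity (points) and the intensity around the spot (black dashes), in arbitrary units, for the 5 miR-378 probes on the 4 arrays, with an axis of its own for each probe. Around miR-378b and miR-378d the surroundings read 58.2 and 57.9 in esophagus at 46 weeks, against 169 and 153 at 28 weeks.

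**Figure D4:**
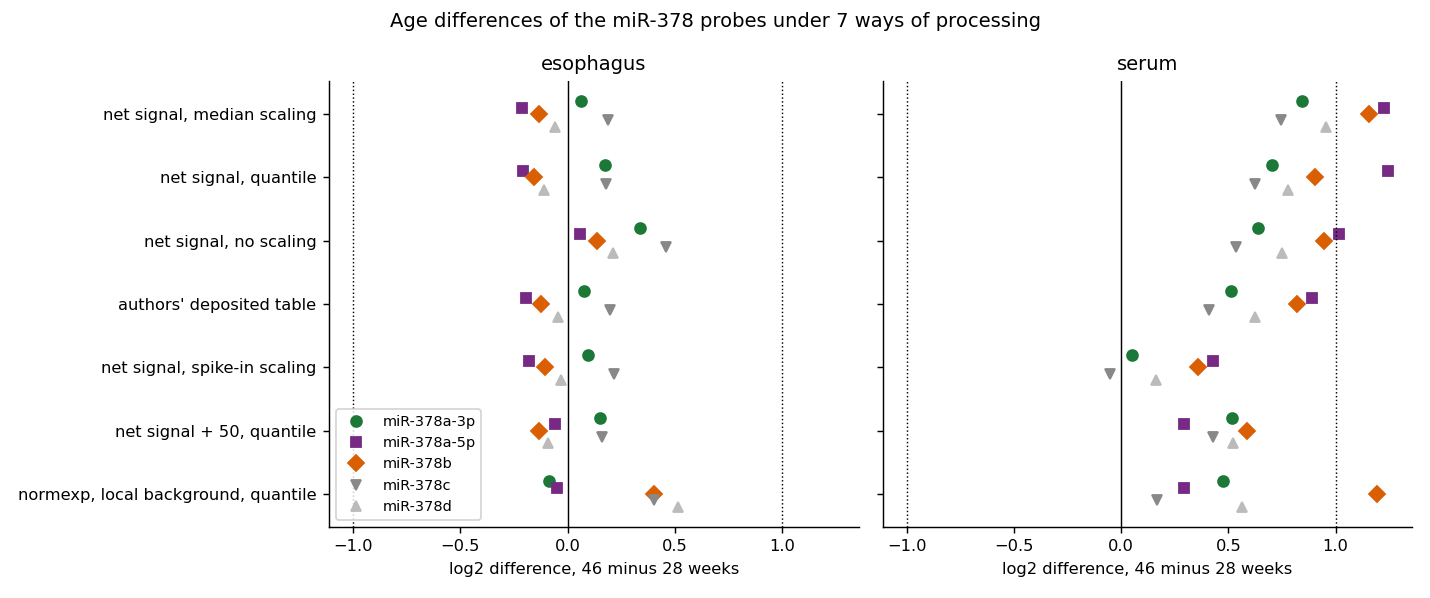
Log2 difference of 46 minus 28 weeks for the 5 miR-378 probes under 7 ways of processing, in esophagus and serum, with dotted lines at 2-fold. In serum the 3 members stay above 0 in all 7, from 0.049 to 1.25. The lowest value, on the spike-in scale, is within its spot noise, and miR-378c stands at -0.05 on that scale. In esophagus the values of each member fall on both sides of 0.

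The miRNAs whose pattern over the 4 arrays was most like that of a member were found by the Euclidean distance between log2 profiles, each centred on its own mean, among the 731 miRNAs detected on all arrays. For miR-378a-3p they were miR-378d (0.16), miR-378c (0.19), miR-142-3p (0.21), miR-31-5p (0.23) and miR-21a-5p (0.29), where the median distance of all miRNAs was 1.79. MiR-142-3p is specific to blood cells, miR-31-5p is abundant in squamous epithelium and miR-21a-5p is widely expressed. For miR-378b they were miR-142-3p (0.18), miR-378a-3p (0.33), miR-378d (0.34), miR-378c (0.37) and miR-431-3p (0.49), against a median of 2.04. MiR-142-3p had a net signal of 138 in 46-week and 127 in 28-week esophagus, and 55.7 in 46-week and 33.9 in 28-week serum.

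The 5p strand was not close to the 3p strand of its own hairpin. For miR-378a-5p the nearest were miR-10a-5p (0.16), miR-467b-5p (0.19), miR-743a-3p (0.21), miR-466q (0.23) and miR-99b-5p (0.28), and miR-378a-3p came only 298th of 730 at a distance of 1.18, near the median of 1.28. Of these, miR-467b-5p, miR-743a-3p and miR-466q were close to background, with net signals of 3.03 to 7.40. From the side of miR-378a-3p, miR-378a-5p came 145th of 730 at the same distance, where the median was 1.79. With 4 arrays, these distances are descriptions, and similar probes share both array and background.

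Other miRNAs with roles in lipid and glucose metabolism lay on both sides of 0 in serum. Of 16 such miRNAs, all detected, 1 rose and 1 fell at least 2-fold at 46 weeks, and their median was -0.16, beside 0.08 for all serum miRNAs. The 2 were miR-375-3p, which restrains insulin secretion, at 1.19, with net signals of 21.4 and 10.8 at 46 and 28 weeks, and the liver miRNA miR-122-5p at -2.87, with 70.0 and 591. Over all serum miRNAs 8.52% rose and 3.41% fell at least 2-fold. On the spike-in scale 0 of the 16 rose and 8 fell, with a median of -0.96 beside -0.72 for all. There 5 of all 822 serum miRNAs rose and 245 fell. With normexp or the offset 0 of the 16 rose and 1 fell, while 10 or 9 of the 822 did so in each direction. In esophagus 1 of the 16 passed 2-fold, miR-122-5p at 2.10, with 107 and 20.8 at 46 and 28 weeks, and the median was -0.19, beside -0.03 for all esophageal miRNAs. Over all esophageal miRNAs 1.30% passed 2-fold upward. With normexp miR-122-5p stood at 0.69 in esophagus and none of the 16 passed.

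Like miR-378a, some metabolic miRNAs lie in introns of genes for metabolic proteins. MiR-33-5p from Srebf2, which controls cholesterol synthesis, and miR-103-3p and miR-107-3p from Pank genes, which make coenzyme A, stood at -0.36, -0.04 and -0.11 in serum. In esophagus they stood at -0.35, -0.18 and -0.24. None of the 3 passed 2-fold at either place. On the spike-in scale 1 did so downward in serum, as did 245 of all 822 serum miRNAs.

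Among 8 miRNAs of brown fat and mitochondrial function, 6 were detected in serum at both ages and 3 of these were at least 2-fold higher at 46 weeks, with a median of 0.77, where 8.52% of all serum miRNAs passed and the median was 0.08. On the spike-in scale this count was 1 and the median -0.03, and with normexp or the offset the count was 0 and the median 0.16 or 0.25. The 3 were miR-203-3p at 1.95 and the neighbours miR-193b-3p at 1.41 and miR-365-3p at 1.39, which lie in 1 cluster and promote brown fat differentiation. Net signals at 46 and 28 weeks were 62.7 and 18.7 for miR-203-3p, 40.5 and 17.6 for miR-193b-3p, and 96.6 and 42.6 for miR-365-3p. In esophagus none of the 6 detected passed 2-fold, with a median of -0.13, which was 0.14 with no scaling. MiR-203-3p, also on the list of squamous miRNAs, stood at 2.51 in esophagus with normexp, the only one of the 6 past 2-fold in that setting.

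MiRNAs that mark striated muscle, a tissue rich in miR-378a-3p, were lower in serum at 46 weeks. There 3 of 3 detected miRNAs fell at least 2-fold, also on the spike-in scale, at -3.16 for miR-1a-3p, -1.99 for miR-133a-3p and -1.91 for miR-133b-3p, and the summed net signal of the 6 listed was 165 at 46 weeks and 876 at 28 weeks. Over all serum miRNAs 3.41% fell at least 2-fold, and on the spike-in scale 245 of 822 did. The 3 members of the miR-378 family stood above 0 on the same arrays, and the part of muscle in their values was not tested. In esophagus the sums were 9180 and 7830 at 46 and 28 weeks, and none of the 4 detected passed 2-fold, while 1 did so upward with normexp, at 1.12. These sums are not scaled, and on the scaled values the median of the 4 was -0.06. MiR-208b-3p, a marker of slow and cardiac muscle, was detected on none of the 4 arrays.

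Other markers that moved in serum beside the members were those of hepatocytes and squamous epithelium, and some of erythrocytes, leukocytes and columnar and glandular epithelium. Over all 822 serum miRNAs 8.52% rose and 3.41% fell at least 2-fold, and on the spike-in scale 5 rose and 245 fell. The hepatocyte miRNA miR-122-5p stood at -2.87, and at -3.67 on the spike-in scale. Both squamous miRNAs were at least 2-fold higher, also on the spike-in scale but only 1 of 2 with normexp or the offset, with summed net signals of 242 and 54.1 at 46 and 28 weeks. Of 4 erythrocyte miRNAs 2 were at least 2-fold lower, 3 on the spike-in scale and 0 with normexp or the offset, with sums of 24713 and 37942 at 46 and 28 weeks, most of it from miR-451a. The 2 were miR-144-3p at -1.30 and miR-144-5p at -1.26 (spot-noise SD 0.72), the latter dim, with net signals of 4.63 and 12.8. MiR-451a stood at -0.43, and the miR-486-5p probe went the other way, at 0.34. Of 3 leukocyte miRNAs 1 was at least 2-fold higher, miR-223-3p of myeloid cells at 1.52, while miR-142-3p stood at 0.93 and miR-150-5p at 0.20, with sums of 1811 and 1010. On the spike-in scale none of the 3 passed 2-fold, and their median was 0.13 in place of 0.93. Smooth muscle miRNAs summed to 224 and 257 at 46 and 28 weeks, and columnar and glandular ones to 160 and 179, with miR-215-5p and miR-375-3p past 2-fold upward. The remaining columnar and glandular miRNAs were lower, miR-192-5p at -0.37 and miR-194-5p at -0.65. The sums are not scaled, and on the scaled values the median of the 4 was 0.41. On the spike-in scale none of the 4 columnar and glandular miRNAs passed 2-fold upward and 2 did so downward, and with normexp or the offset none passed. The part of any of these cell types in the values of the miR-378 family was not tested.

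In esophagus the summed net signals at 46 and 28 weeks were 3453 and 3067 for squamous epithelium, 5261 and 5195 for smooth muscle, 147 and 98.3 for columnar and glandular epithelium, 769 and 652 for leukocytes and 128 and 198 for erythrocytes. These sums are not scaled, and the median net signal of miRNAs detected on all arrays was 21.1 at 46 weeks and 17.5 at 28 weeks. On the scaled values the median log2 difference was -0.11 for squamous, -0.27 for smooth muscle and -0.15 for leukocyte miRNAs. It was 0.27 for columnar and glandular and -0.24 for erythrocyte miRNAs, beside -0.03 for all esophageal miRNAs. The miRNAs of these lists past 2-fold were the erythrocyte miRNA miR-144-3p, which fell by 3.61 on the log2 scale, and the hepatocyte miRNA given above. The net signals of miR-144-3p were 8.01 and 80.9 at 46 and 28 weeks, while miR-451a stood at -0.24 and the miR-486-5p probe at -0.12. The lowest erythrocyte value was -1.09 with normexp and -1.27 with the offset.

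Between the sample types, markers of the esophageal wall stood on the side of the tissue at both ages. At 46 weeks 3 of 3 detected striated muscle miRNAs, 2 of 2 smooth muscle miRNAs and 2 of 2 squamous miRNAs passed 4-fold toward esophagus, and 3 of 3 detected erythrocyte miRNAs passed it toward serum. At 28 weeks the counts were 4 of 4, 2 of 2 and 2 of 2 higher, with 2 of 3 erythrocyte miRNAs lower. With normexp 1 of 2 squamous miRNAs passed at 28 weeks, and with normexp or the offset 2 of 3 erythrocyte miRNAs passed at 46 weeks. Of 4 columnar and glandular miRNAs none passed 4-fold in either direction at either age, except 1 toward serum at 28 weeks on the spike-in scale. Of the 16 metabolic miRNAs 4 passed 4-fold toward esophagus at 46 weeks, with a median of 0.93, and 5 were higher and 1 lower at 28 weeks, with a median of 1.14. Over all miRNAs 6.19% passed toward esophagus at 46 weeks and 7.04% at 28 weeks, with medians of 0.03 and 0.23. On the spike-in scale the 28-week counts were 2 higher and 2 lower, with a median of 0.40. With normexp or the offset 2 were higher at 46 weeks, and 1 was higher and 1 lower at 28 weeks. The widest gap among them was that of miR-143-3p, also a smooth muscle miRNA, at 5.73 and 5.19 at 46 and 28 weeks. The brown fat list had 3 of 6 detected members past 4-fold toward esophagus at both ages, with medians of 1.03 and 1.31 at 46 and 28 weeks, and 2 of 6 at 28 weeks on the spike-in scale. With normexp the brown fat counts were 1 at 46 weeks and 0 at 28 weeks, and with the offset they were 1 at each age.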

How the data were processed

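Per the labels, total RNA was labelled with Hy5 for 1-colour Toray 3D-Gene arrays. Each deposited scanner file lists, per the file headers, a median intensity for the spot and another for its background, and least-squares fits between 3 scanner gains. The spot values were not background-subtracted, as BLANK spots kept a positive mean. In the authors' deposited table of intensities, each value matched the spot less about the BLANK mean, multiplied by a constant of the array that brings listed miRNAs to a median of 25, with departures of at most 0.0515 units.

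Here the BLANK mean was subtracted from each spot and each array was scaled to a common median over 731 miRNAs detected on all 4 arrays. Differences of log2 values were counted at 2-fold between ages and 4-fold between tissues. No test was possible with 1 array per group, and their number limits the precision. Spot noise joined the SD over 97 No Probe spots and the relative SD of spike-in spots, 3.23% to 5.51%. The detection limit was lenient, as 39.2% to 77.3% of No Probe spots passed it.

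Named miRNAs were the members, the 5 probes nearest each member in pattern, and list members past the fold, up to 4 per list. Lists overlap: miR-375-3p, miR-143-3p, miR-122-5p, miR-203-3p, miR-33-5p, miR-103-3p and miR-107-3p are in 2 lists each. Members and lists were chosen with earlier results of these arrays known. Further values were given for list members under the fold where a sentence turned on them. The alternatives were normexp with limma 3.58.1 in R 4.3.3, an offset of 50, quantile normalization, no scaling, spike-in scaling, the authors' table and a limit from No Probe spots. The functions were tested on simulated arrays. Python 3.11.15, numpy 2.4.6, pandas 2.3.3 and matplotlib 3.10.9 were used.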

Additional observations from a re-analysis of the deposited data

Results flagged for a closer look

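In 2 of the 3 members the age difference had opposite signs in the 2 sample types. For miR-378a-5p, 46 minus 28 weeks gave -0.21 in esophagus and 1.22 in serum on the log2 scale, and for miR-378b it gave -0.14 in esophagus and 1.15 in serum. The opposite signs were not found in every setting, since without scaling the esophageal values were 0.060 for miR-378a-5p and 0.14 for miR-378b, and with normexp miR-378b stood at 0.40, on the side of serum. With 1 array per group the difference between serum and esophagus was not tested, and the esophageal value of miR-378a-5p was smaller than its spot noise.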

How the results depend on the processing

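No paired analysis was possible because each group had 1 array, and for the same reason no array could be left out. In serum all 3 members stood above 0 under all 6 alternatives, while the sizes moved. On the spike-in scale miR-378a-3p, at 0.049, was within its spot-noise SD of 0.12, so that its sign cannot be read there. The related miR-378c stood at -0.05 on that scale. MiR-378a-5p, at 0.29 with normexp or the offset, was close to its spot-noise SD of 0.27. For miR-378a-3p, miR-378a-5p and miR-378b in that order, the serum log2 differences were 0.51, 0.89 and 0.82 in the authors' table, 0.049, 0.43 and 0.36 with spike-in scaling, 0.52, 0.29 and 0.59 with the offset and quantile normalization, and 0.64, 1.02 and 0.95 without scaling. With quantile normalization of net signals miR-378a-3p stood at 0.70 and miR-378b at 0.90, and with normexp miR-378a-3p stood at 0.47 and miR-378a-5p at 0.29. The 2 members past 2-fold in serum became 0 with the authors' table, the offset or spike-in scaling, and 1 without scaling, with quantile normalization or with normexp. The 1 member past 4-fold between esophagus and serum at 28 weeks became 0 with the offset, spike-in scaling or normexp. In esophagus miR-378a-3p stood at 0.34 without scaling, 0.17 with quantile normalization and -0.087 with normexp, miR-378a-5p at 0.060 without scaling, and miR-378b at 0.14 without scaling and 0.40 with normexp. Over all miRNAs, 11 were at least 2-fold higher and 14 lower in esophagus at 46 weeks. The counts became 18 and 28 in the authors' table, 1 and 2 with the limit from No Probe spots, 1 and 1 with the offset, 30 and 6 without scaling and 4 and 2 with normexp. In serum 70 were higher and 28 lower, against 31 and 89 in the authors' table, 9 and 9 with the offset, 39 and 55 without scaling, 5 and 245 with spike-in scaling and 10 and 10 with normexp. These counts are over 843 esophageal and 822 serum miRNAs. In the authors' table they are over 942 and 897, and with the limit from No Probe spots over 554 in esophagus. The scaling sets the median of all serum miRNAs, at 0.08 in the reported values, -0.72 with the spike-in spots, -0.13 without scaling and -0.26 over the 897 in the authors' table. The offset by its construction draws dim miRNAs toward 0, and the cause of the other changes was not tested. The lists' counts in serum moved with the scaling as well, and on the spike-in scale 8 of 16 metabolic miRNAs were at least 2-fold lower, against 1 as reported. Signals near background, such as those of miR-378a-5p, limit the size that can be read from a fold.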
